A study of Mus musculus with 6 samples.

Results

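The genes that encode the proteins of the cytosolic ribosome were examined in LSK cells from Asxl2-/- and wild-type mice. Members were the gene symbols that consist of Rpl or Rps, a number and at most one of the letters a, x, y or l, together with Rplp0, Rplp1, Rplp2 and Rpsa, and names carrying -ps were dropped. The rule found 81 members among 24063 symbols, of which 32 belong to the small (40S) subunit and 49 to the large (60S) subunit. Of these, 79 had enough counts to be tested, whereas Rpl10l and Rpl39l did not. The rule uses names and no measured value, but the set was chosen with earlier results of these data known.

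The cytosolic ribosome translates messenger RNA into protein. Its 40S subunit reads the message and its 60S subunit joins the amino acids, and because each subunit holds one copy of most of its proteins, cells make the ribosomal proteins in matched amounts. Their mRNAs are among the most abundant in growing cells and usually begin with a run of pyrimidines, the 5' terminal oligopyrimidine tract, through which mTOR signalling controls their translation. In blood formation, loss of one copy of several of these genes causes Diamond-Blackfan anaemia, and loss of RPS14 is tied to the anaemia of the 5q- syndrome, while haematopoietic stem cells are known to keep a low rate of protein synthesis.

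RNA was sequenced from LSK cells, the lineage-negative, Sca-1-positive, c-Kit-positive bone marrow fraction that holds stem and early progenitor cells, sorted from 3 Asxl2-/- and 3 wild-type C57BL/6 mice after injection of pIpC. Asxl2-/- libraries came from mice with loxP sites around exon 11 of Asxl2, and both groups carried Mx1-cre, a transgene whose interferon-inducible promoter is switched on by the double-stranded RNA pIpC and is not restricted to blood cells. Libraries are called KO1 to KO3 (Asxl2-/-) and WT1 to WT3 (wild type), with the replicate numbers of the labels. The methods of the study call the replicates biological, and the sources used here gave no ages for the mice.

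The deposited counts came in files of 2 kinds, and this bears on every value below. KO1, KO3 and WT2 had 1 count per transcript (gene-count files, totals of 25528540 to 29136012 counts). KO2, WT1 and WT3 had 1 count per exon (exon-count files, totals of 53147729 to 55032075 counts), which were summed over the exons of a transcript. These totals cover the 1 transcript kept per symbol and not all counts deposited. Exon 11 took 0.583% of the exon counts of Asxl2 in KO2 against 10.3% in WT1 and 11.99% in WT3, and the gene-count files do not resolve exons. Xist was at 49540 to 66689 counts in the Asxl2-/- libraries and 590 to 3194 in the wild-type libraries, and the Y-linked gene Ddx3y was at 0 to 2 counts against 2837 to 4807, so genotype and sex of the mice cannot be told apart. All 10 LSK markers looked at were detected, Kit among them at 280 to 431 CPM, that is counts scaled to a common library total after TMM normalisation. Marker levels differed between the groups. Summed over 9 B-cell markers, of which 8 passed the test as higher, the level was 186 to 225 CPM in Asxl2-/- and 44.0 to 64.1 CPM in wild-type libraries. Summed over 9 erythroid markers, of which 0 passed, it was 420 to 886 against 1233 to 2139 CPM. Car1 was the largest part of the erythroid sum, at 212 of 420 CPM in KO1 and 1652 of 2139 CPM in WT3. The log2 fold change was below 0 for 7 of the erythroid markers and above 0 for 2. Hbb-b1, Hba-a1, Alas2 and Slc4a1 were above 0 in the gene-count files and below 0 in the exon-count files. All 7 megakaryocyte markers lay above 0 and 4 of them passed as higher (Vwf at a log2 fold change of 2.17, Ppbp at 2.72, Pf4 at 2.03 and Gp5 at 0.72), with a summed level of 315 to 820 against 158 to 352 CPM. Of 9 myeloid markers Ltf passed as higher (3.52), and their summed level of 2523 to 6674 CPM overlapped that of wild type (2582 to 7882 CPM). Mpo was the largest part of this sum, at 4732 of 6674 CPM in KO2 and 5506 of 7882 CPM in WT2. The log2 fold change was above 0 for 5 of the myeloid markers. The other 4, Elane, Mpo, Prtn3 and Ctsg, were below 0 in the gene-count files and above 0 in the exon-count files. Of the LSK markers 2 passed as higher, with 8 above 0 and 2 below. Ly6a, which encodes Sca-1, was at a log2 fold change of -1.34 (edgeR adjusted p = 0.187). Ly6a was at 52.6, 69.1 and 57.6 CPM in KO1 to KO3 against 40.5, 260 and 148 in WT1 to WT3. Of 7 T and NK cell and 5 endothelial markers 0 passed. No marker of these lists was at 0 in every library. The part of these differences in the values of the ribosomal protein genes was not tested, and in bulk RNA fewer cells of a type and less RNA per cell cannot be told apart.

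Start regions of members whose fold changes are described below are shown first, because the pyrimidine tract is the feature these mRNAs are known to share. Of the 81 members, 58 matched an entry of the RefSeq promoter table (build GRCm38.p6, the assembly also called mm10) whose start lay within 50 bases of the start of the counted transcript. Each window runs 5' to 3' on the strand of the gene from 15 bases before the first annotated base to 14 bases after it, and capitals mark its longest unbroken run of C or T. The first 6 genes are low members described below, the next 4 had fold changes above 0, and the last 2 were chosen because their run of pyrimidines spans the start.
Rps2 (chr17:24720048-24720077, + strand): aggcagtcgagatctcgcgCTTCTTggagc
Rpl41 (chr10:128549154-128549183, - strand): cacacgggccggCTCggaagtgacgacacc
Rps27l (chr9:66946071-66946100, + strand): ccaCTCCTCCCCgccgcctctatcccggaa
Rplp0 (chr5:115559452-115559481, + strand): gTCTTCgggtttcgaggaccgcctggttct
Rpl18 (chr7:45718056-45718085, + strand): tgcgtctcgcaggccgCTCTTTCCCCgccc
Rplp2 (chr7:141447636-141447665, + strand): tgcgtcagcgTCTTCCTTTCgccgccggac
Rpl39 (chrX:37085208-37085237, - strand): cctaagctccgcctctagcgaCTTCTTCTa
Rps24 (chr14:24490663-24490692, + strand): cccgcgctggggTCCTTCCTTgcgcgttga
Rpl5 (chr5:107900513-107900542, + strand): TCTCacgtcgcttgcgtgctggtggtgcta
Rpl36a (chrX:134585639-134585668, + strand): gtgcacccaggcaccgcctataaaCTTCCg
Rpl28 (chr7:4792950-4792979, + strand): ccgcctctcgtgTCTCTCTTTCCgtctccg
Rps27 (chr3:90213634-90213663, - strand): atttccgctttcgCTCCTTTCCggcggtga

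A run of at least 6 bases, each C or T, lay in this 30-base window in 35 of the 58 members (60.3%) against 29.1% of 27025 promoters of the table. The run could lie anywhere in the window, also wholly before the annotated first base, as in Rps27l. The share is therefore not a count of tracts at the start of the mRNA. Within the whole 300-base entry (250 bases before the start and 50 from it), CTTTCC on the strand of the gene was found in 23 of the 58 (39.7%) against 14.05% of all entries. CCGGAA on either strand, the core that ETS factors recognise, was found in 51.7% against 15.2%, whereas TATAAA on the strand of the gene was found in 6.90% against 8.88%. A match is a string of letters in the reference and not a measured site of binding or of transcription start. Among the 77 members described below as broadly expressed, the median log2 fold change was -0.064 for the 22 with CTTTCC in the entry and -0.14 for the 33 without it, and the 2 sets overlapped over most of their range (-0.25 to 0.068 and -0.33 to 0.14).

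Ribosomal protein genes were among the most highly expressed genes of these cells. Levels of different genes were compared as CPM per kilobase of transcript in the 3 gene-count libraries only, since the 2 kinds of file gave different values for these genes, as described below. By this measure 32 of the top 50 genes and 61 of the top 100 were members. Of the 79 tested, 77 were broadly expressed, with means from 135 to 2603 CPM per kb and a median of 899, against a median of 10.1 over all genes tested. The remaining tested members, Rps4l and Rpl3l, were paralogues at far lower levels and are described separately. The median was 942 CPM per kb for 40S genes and 795 for 60S genes.

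The highest member was Rplp1, one of the acidic proteins of the stalk that recruits translation factors to the 60S subunit, at 2361 CPM per kb in KO1, 2250 in KO3 and 3198 in WT2. It was followed by Rpl32 at 2297, 2357 and 2493, and by Rpl4, a protein lining the exit tunnel of the nascent chain, at 1935, 2015 and 2317. The lowest of the broadly expressed genes was Rps15a at 131, 131 and 144, where its 1 listed transcript has 5134 bases against a median of 684 bases for the 77. The level of a short gene in these units also depends on the RefSeq length that was taken. The order of the members was nearly the same in all 3 libraries, with a lowest Spearman correlation of 0.980 between any pair of them over the 77 genes, given as a description of genes that share libraries and lengths.

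**Figure D1:**
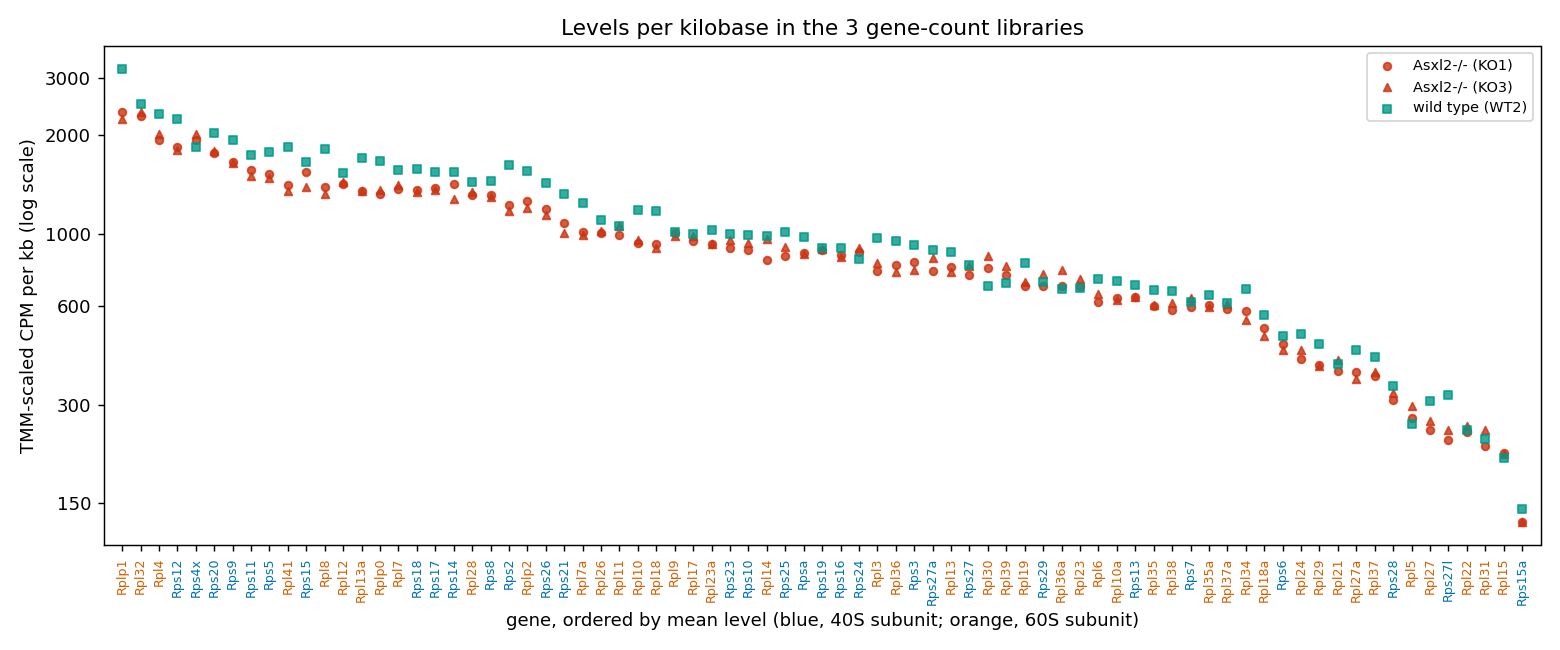
Level of each of the 77 broadly expressed ribosomal protein genes in the 3 gene-count libraries, as TMM-scaled CPM per kb on a log scale, with genes ordered by mean level. The levels run from 135 to 2603 CPM per kb, and WT2 lies above KO1 and KO3 for most genes on this scale.

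Shares of counts need no scaling between libraries and were taken over the 1 transcript kept per symbol. The members took 6.05% in KO1 and 5.99% in KO3 against 6.17% in WT2, and 8.26% in KO2 against 8.34% in WT1 and 8.19% in WT3. The gene-count libraries of Asxl2-/- thus lay 0.147 percentage points below the one of wild type, and in the exon-count files KO2 lay between the controls, with a difference from their mean of -0.0077 points. Pooled over both kinds the means were 6.76% ± 1.29 (SD, n = 3) and 7.57% ± 1.22 (SD, n = 3), with p = 0.3 by a two-sided exact permutation test, where 3 against 3 cannot give less than 0.10. The pooled difference was -0.801 points, with 2 of the 3 Asxl2-/- libraries but 1 of the 3 wild-type libraries in gene-count files. The counting interval of any single share was within 0.01 points of it and covers counting error only. Rpl4 took the most counts of any member in every library, between 4.59% and 5.28% of those on all members. The counts on 60S genes were 1.34 and 1.38 times those on 40S genes in KO1 and KO3 against 1.39 in WT2, and 1.37 times in KO2 against 1.39 and 1.42 in WT1 and WT3.

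The typical member differed more between the kinds of file than between genotypes. The kind of file also went with depth, and counting, depth and any difference in preparation or sequencing between these libraries cannot be told apart. The mean CPM in exon-count libraries was 1.16 to 2.27 times that in gene-count libraries for the 77 genes, with a median of 1.56, against a median of 0.989 over 10503 genes that reached 100 counts in all 6 libraries. The ratio was smallest for Rpl29 (281, 280 and 327 CPM in KO1, KO3 and WT2 against 324, 338 and 367 in KO2, WT1 and WT3) and largest for Rps21 (423, 393 and 519 against 966, 1024 and 1044). Across the 77 genes it was larger for genes with more exons per kilobase (Spearman correlation 0.541, a description). For this reason the kind of file was a covariate in the comparison of genotypes, and values are given within each kind.

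Between Asxl2-/- and wild-type LSK cells no ribosomal protein gene passed the test. Of 14145 genes tested with edgeR, 288 (2.04%) passed as higher and 43 (0.304%) as lower in Asxl2-/- cells at an adjusted p under 0.05, and of the 79 members tested 0 passed in either direction. At an unadjusted p under 0.05, 1 member was higher and 9 were lower, while 15% and 12.6% of all genes were. DESeq2 called 0 members higher and 8 lower, against 8.35% and 8.12% of all genes, so that the 8 were a share close to the background. Fold changes of the 77 broadly expressed genes lay between -0.35 and 0.25 on the log2 scale, that is at most 1.27-fold lower and 1.19-fold higher, and 62 of the 77 were within 0.2 of 0. The 95% confidence interval lay inside -0.5 to 0.5 for 72 of the 77, with standard errors from 0.074 to 0.12.

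The typical member was slightly below the typical gene. The median log2 fold change of the 79 was -0.099 against 0.00052 for all genes, with 66 members below 0 where 49.9% of all genes were. It was -0.088 for the 31 broadly expressed 40S genes and -0.11 for the 46 of the 60S subunit. The direction depended on the scaling: with library size alone the median of the members was 0.00028 and that of all genes 0.099, and 40 members lay above 0 and 39 below, where 38% of all genes lay below 0. The distance between the members and all genes was -0.098 there and -0.10 in the main comparison, but it was 0.033 once the trend of each library with transcript length was removed and 0.066 once the trend with abundance was removed. The median of the members also differed between the kinds of file, at -0.19 in the gene-count files alone and -0.032 in the exon-count files alone. Without WT2 it was -0.034. WT2 is the only wild-type gene-count library, so this value is in effect the comparison within the exon-count files again.

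**Figure D2:**
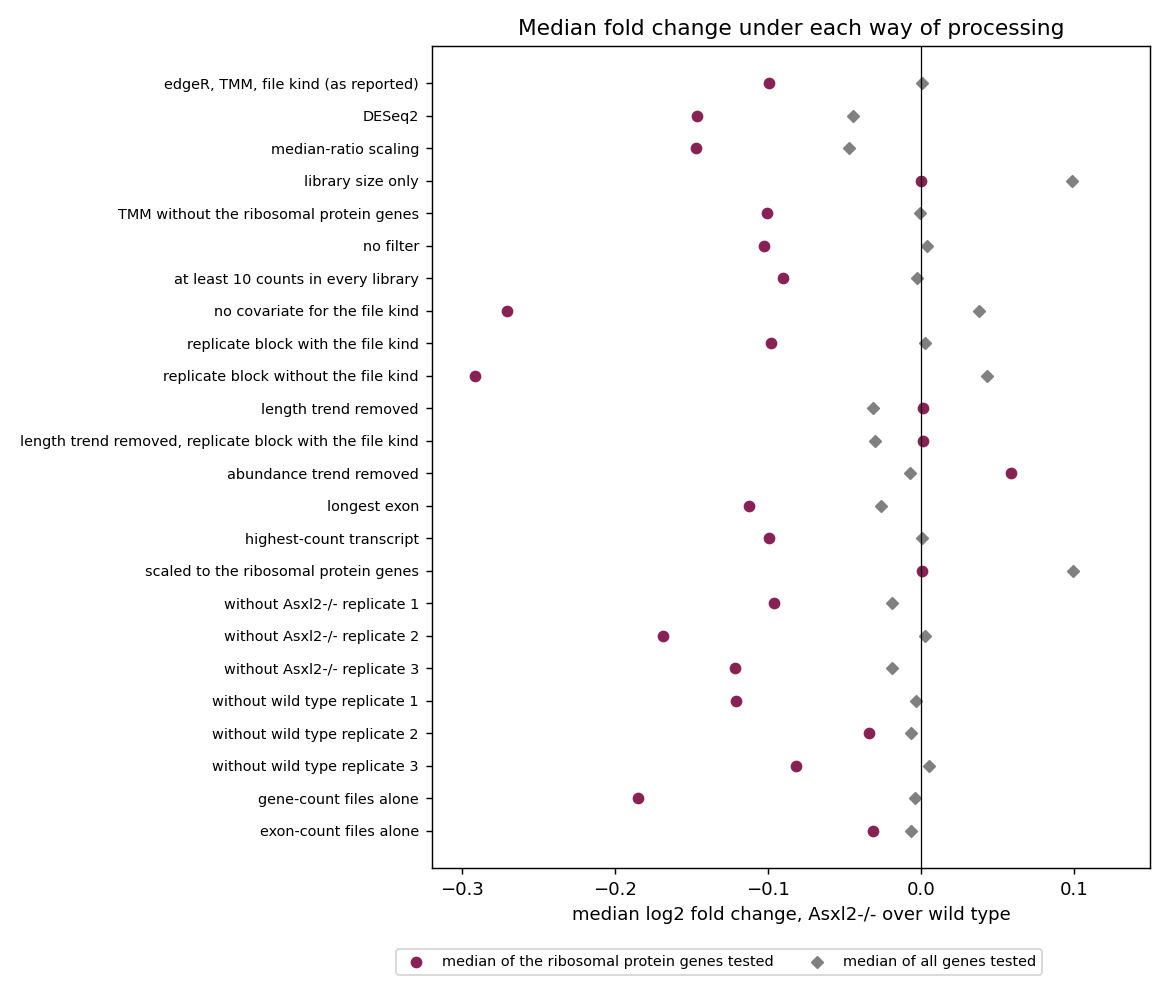
Median log2 fold change (Asxl2-/- over wild type) of the ribosomal protein genes tested and of all genes tested, under each way of processing, 1 line per setting. The members lie between -0.29 and 0.059, near 0 with library size alone and above all genes when the length or abundance trend is removed.

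The fold changes of single members were spread narrowly around that median, and their order was shared by both kinds of file. The plot of all fold changes runs from the stalk protein Rplp1 at the low end to Rpl30 at the high end. In the next paragraphs levels are TMM-scaled CPM, given first for the gene-count and then for the exon-count libraries.

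**Figure D3:**
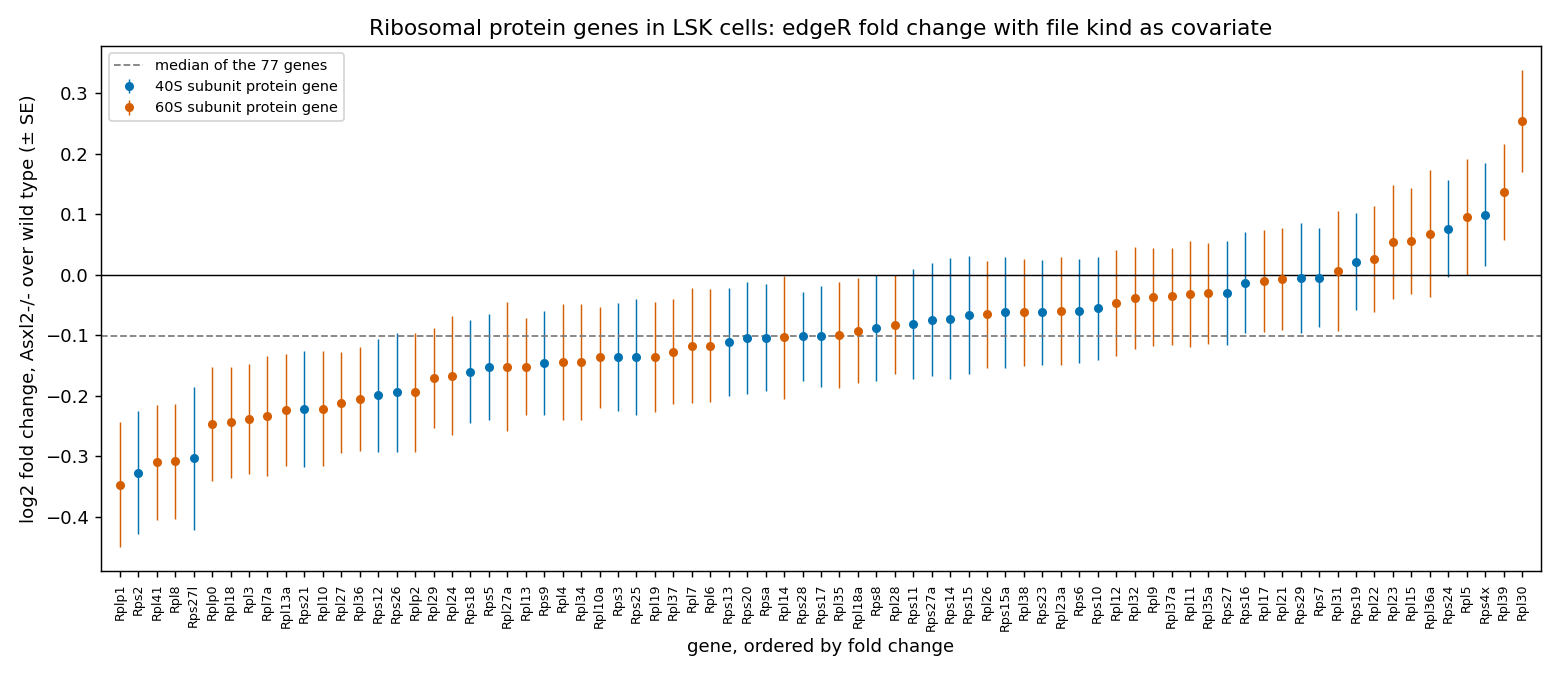
Log2 fold change of each of the 77 broadly expressed members from edgeR with file kind as covariate, ordered by value, with bars of 1 SE. Values run from -0.35 (Rplp1) to 0.25 (Rpl30) around a median of -0.10 (TMM scaling), and 0 genes passed the adjusted threshold.

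The stalk of the 60S subunit, through which elongation factors are recruited and their GTPase activity stimulated, lay at the low end. Rplp1 was at 1105 CPM in KO1 and 1053 in KO3 against 1497 in WT2, and at 1500 in KO2 against 1644 in WT1 and 1855 in WT3. Its Asxl2-/- libraries were below the wild-type libraries in both kinds of file, and its log2 fold change was -0.35 ± 0.10 (SE; edgeR adjusted p = 0.108). Rplp0, the stalk base, was at 1800 and 1846 against 2269 CPM, and at 2415 against 2572 and 2889, for a log2 fold change at -0.25 ± 0.094 (SE; adjusted p = 0.161 in edgeR). Rplp2 was at 556 and 530 against 684 CPM and at 1105 against 1117 and 1180, for a log2 fold change at -0.19 ± 0.099 (SE; adjusted p = 0.249 in edgeR). For Rplp2 the exon-count libraries were thus nearly level, and none of the 3 stalk genes passed the test.

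The other low members were proteins of both subunits. Rps2, which sits near the entry of the mRNA channel of the 40S subunit, was at 1220 and 1170 against 1622 CPM, and at 1919 against 2093 and 2355, for a log2 fold change at -0.33 ± 0.10 (SE; adjusted p = 0.115 in edgeR). Rpl41, the smallest protein of the ribosome, was at 631 and 606 against 826 CPM and at 1063 against 1169 and 1279 (log2 fold change -0.31, edgeR adjusted p = 0.113). Rpl8, next to the catalytic centre, was at 1198 and 1140 against 1562 CPM and at 1704 against 1886 and 2024 (log2 fold change -0.31, edgeR adjusted p = 0.114). Rpl18 was at 634 and 615 against 799 CPM and at 1149 against 1228 and 1293 (log2 fold change -0.24, edgeR adjusted p = 0.157). For each of these genes every Asxl2-/- library was below every wild-type library within its kind of file. Rplp1, Rps2, Rpl41, Rpl8, Rplp0 and Rpl18 were among the 8 members that DESeq2 called lower, with adjusted p from 0.0097 to 0.0397, and Rpl3 and Rpl36, named here after their values were seen, were the other two, at log2 fold changes of -0.29 and -0.25.

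Rps27l, a paralogue of Rps27 that is known as a target of p53, was at a like value. It was at 109 and 117 CPM in KO1 and KO3 against 149 in WT2, and at 179 in KO2 against 183 in WT1 and 230 in WT3. The log2 fold change was -0.30 (95% interval -0.59 to -0.016, adjusted p = 0.166 in edgeR), and KO2 was close to the lower of its controls. Of 10 other p53 targets looked at, 0 passed the test, with a median log2 fold change of 0.16 (0.034 with the abundance trend removed), and DESeq2 called 2. Those of smallest p were Phlda3 (1.01, adjusted p = 0.086), Trp53inp1 (1.05, adjusted p = 0.0996) and Bax (-0.32, adjusted p = 0.159).

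At the high end stood Rpl30, which forms a bridge between the subunits. It was at 452 and 490 CPM in KO1 and KO3 against 398 in WT2, and at 593 in KO2 against 481 in WT1 and 505 in WT3. Every Asxl2-/- library was above the wild-type libraries of its kind, and its log2 fold change was 0.25 (95% interval 0.050 to 0.46, adjusted p = 0.127 in edgeR). With the libraries scaled to the ribosomal protein genes alone, a setting chosen after the data were seen, Rpl30 had the smallest p of all members (adjusted p = 0.061), and in that setting 0 of the 79 passed where 1.36% and 0.184% of all genes passed as higher and lower. Rpl30 shares 81.4% of its exon bases with the entry Gm12191. Their counts were nearly equal in the gene-count files (12735 and 12738 in KO1, 13906 each in KO3, 11472 and 11477 in WT2), whereas in the exon-count files Gm12191 held more, at 38696 against 31565 in KO2, 30724 against 25048 in WT1 and 29386 against 23922 in WT3. Reads over the shared exons cannot be assigned to one of the 2 entries.

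Members on the X chromosome are of interest because of the sex difference between the groups. Rps4x, a 40S protein, was at 1701 and 1763 against 1613 CPM and at 2160 against 1946 and 2092, so that its Asxl2-/- libraries were highest in both kinds of file (log2 fold change 0.10 ± 0.085 SE, adjusted p = 0.474 in edgeR). Rpl39, a small protein of the exit tunnel, was at 295 and 314 against 278 CPM and at 405 against 370 and 364 (log2 fold change 0.14 ± 0.080 SE, adjusted p = 0.303 in edgeR). Rpl36a was at 339 and 378 against 332 CPM and at 533 against 483 and 564, so that the groups overlapped in the exon-count files (log2 fold change 0.068, edgeR adjusted p = 0.707). Rpl10, which joins the 60S subunit late in its assembly, lay below 0, at 745 and 763 against 942 CPM and 1250 against 1292 and 1430 (log2 fold change -0.22 ± 0.095 SE, adjusted p = 0.194 in edgeR). The 4 X-linked members thus lay on both sides of 0, and none passed the test.

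**Figure D4:**
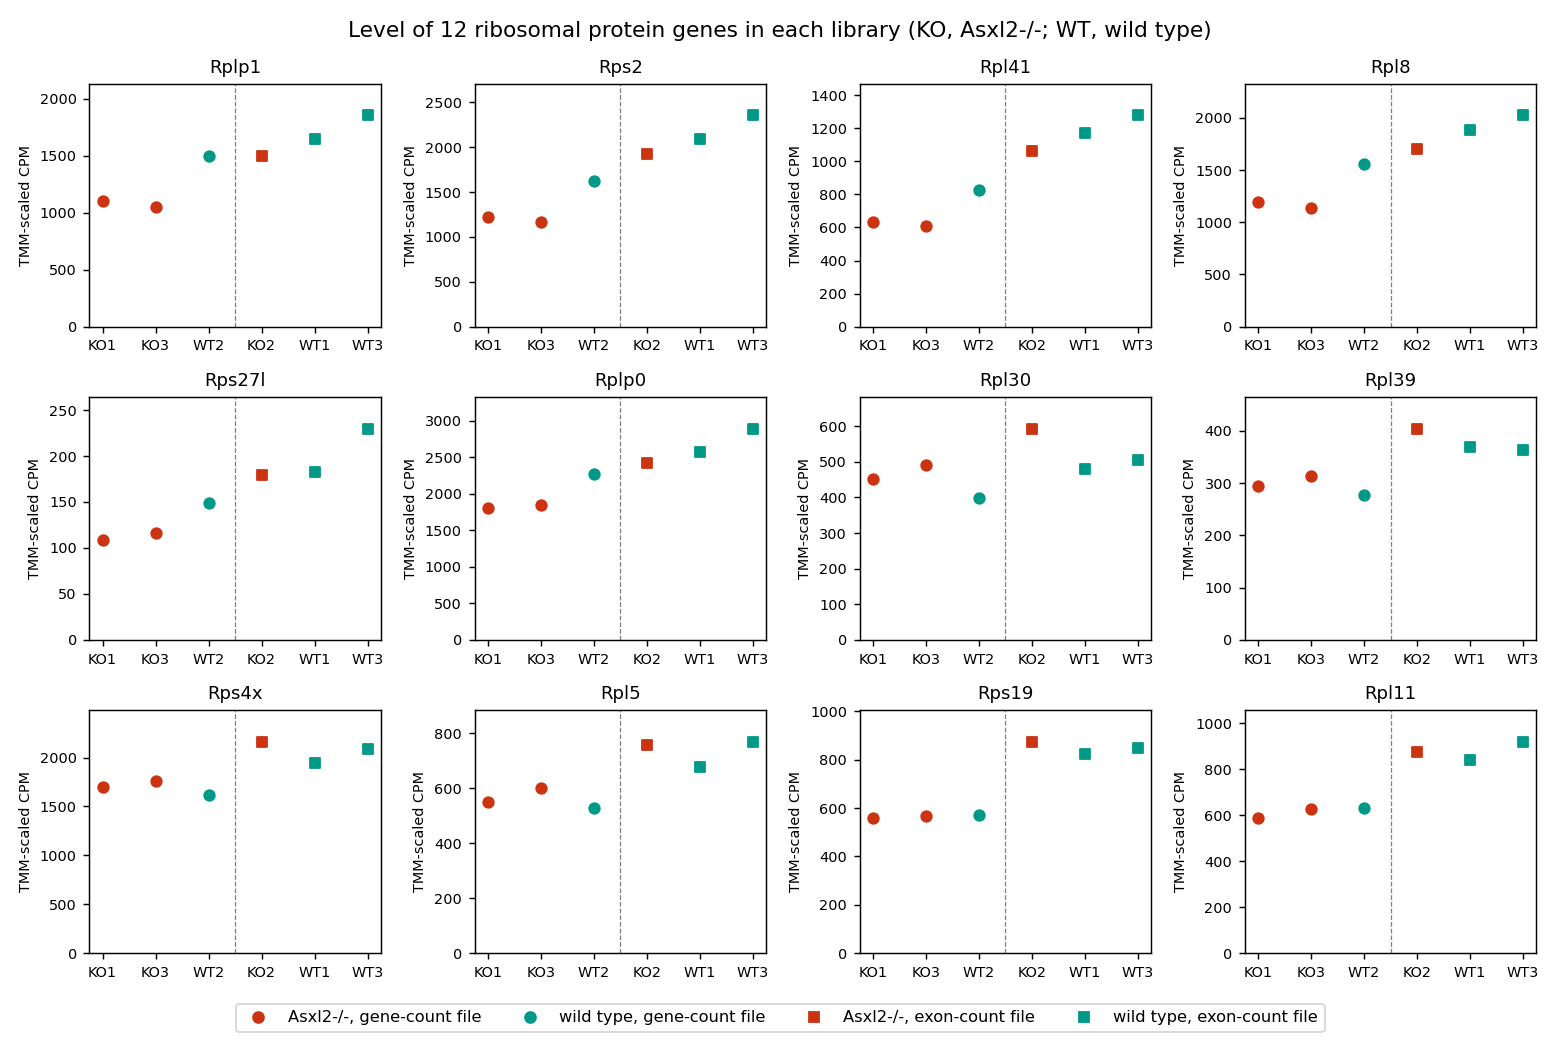
TMM-scaled CPM of 12 members in each library, from 0, with gene-count libraries left of the dashed line and exon-count libraries right of it. KO1, KO3 and KO2 lie below the wild-type libraries of their kind for Rplp1, Rps2, Rpl41, Rpl8, Rps27l and Rplp0 and above them for Rpl30, Rpl39 and Rps4x, while Rps19 and Rpl11 are nearly level within each kind.

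The genes of Diamond-Blackfan anaemia had fold changes near 0. Of the 17 in the list used, 0 passed the test, 12 lay below 0 and 5 above, and the median log2 fold change was -0.031 in a range from -0.21 to 0.095. The direction turned with the scaling, since 4 of the 17 lay below 0 with library size alone (median 0.068), 2 with the length trend removed (0.070) and 3 with the abundance trend removed (0.11). Rps19, the gene most often mutated in that disease, was at 559 and 567 against 571 CPM and at 873 against 825 and 846. Its log2 fold change was 0.022 with a 95% interval from -0.17 to 0.22, and its sign turned with the scaling. Rps14 was at 850 and 761 against 920 CPM and at 1404 against 1355 and 1362, a log2 fold change of -0.072 with an interval from -0.31 to 0.17. Rpl5 and Rpl11, which with 5S rRNA form the particle that binds Mdm2, were at 550 and 599 against 528 CPM (Rpl5) and at 587 and 626 against 629 CPM (Rpl11) in the gene-count files. In the exon-count files Rpl5 was at 757 against 678 and 768 CPM. Rpl5 shares 47.7% of its exon bases with the entry Fam69a, and the part of Fam69a in its values was not tested. Rpl11 was at 873 against 840 and 918 CPM there. The log2 fold changes were 0.095 (95% interval -0.14 to 0.33) for Rpl5 and -0.032 (-0.25 to 0.18) for Rpl11, and in the exon-count files KO2 lay between the controls for both genes. Rpsa, the 40S protein also known as the laminin receptor precursor, was at 1623 and 1617 against 1825 CPM and at 2303 against 2265 and 2457 (log2 fold change -0.10, edgeR adjusted p = 0.474).

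Of the tissue-restricted paralogues, Rpl3l, Rpl10l and Rpl39l were at or near the limit of detection, and Rps4l was low but detected in every library. Rps4l, an autosomal relative of Rps4x, had 255 and 129 counts in KO1 and KO3 against 95 in WT2, and 290 in KO2 against 269 in WT1 and 173 in WT3. Its Asxl2-/- libraries were highest in both kinds of file, with a log2 fold change of 0.66 and a wide interval from -0.22 to 1.55 (edgeR adjusted p = 0.280). The 1 listed transcript of Rps4l is a non-coding RefSeq entry with 1 exon. Whether some of its reads came from Rps4x was not tested. Rpl3l, the paralogue of Rpl3 known from heart and skeletal muscle, had 2 to 18 counts in all 6 libraries and a log2 fold change of 1.03 with an interval from -0.87 to 2.93. Rpl10l, known from the testis, had 0 counts in every library, which allows up to 0.0545 CPM in the deepest and 0.118 CPM in the shallowest library (3 counts, counting error only).

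The order of the members was compared between the kinds of file, which share no library. Across the 77 genes the log2 ratio of KO1 and KO3 to WT2 and that of KO2 to WT1 and WT3 had a Pearson correlation of 0.846 and a Spearman correlation of 0.810. These are descriptions over genes, which are not independent and share transcript length, level and base composition in both kinds of file. Ratios were below 0 in both kinds for 48 genes and above 0 in both for 8, and 21 had opposite signs, mostly genes below 0 in the gene-count files and near 0 in the exon-count files. Among the 79 tested, 33 had every Asxl2-/- library below every wild-type library of its kind on the TMM scale where 23.3% of all genes did, and 5 had the reverse where 25.4% did. With library size alone these counts were 21 and 24, where 16.6% and 31.3% of all genes did so.

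**Figure D5:**
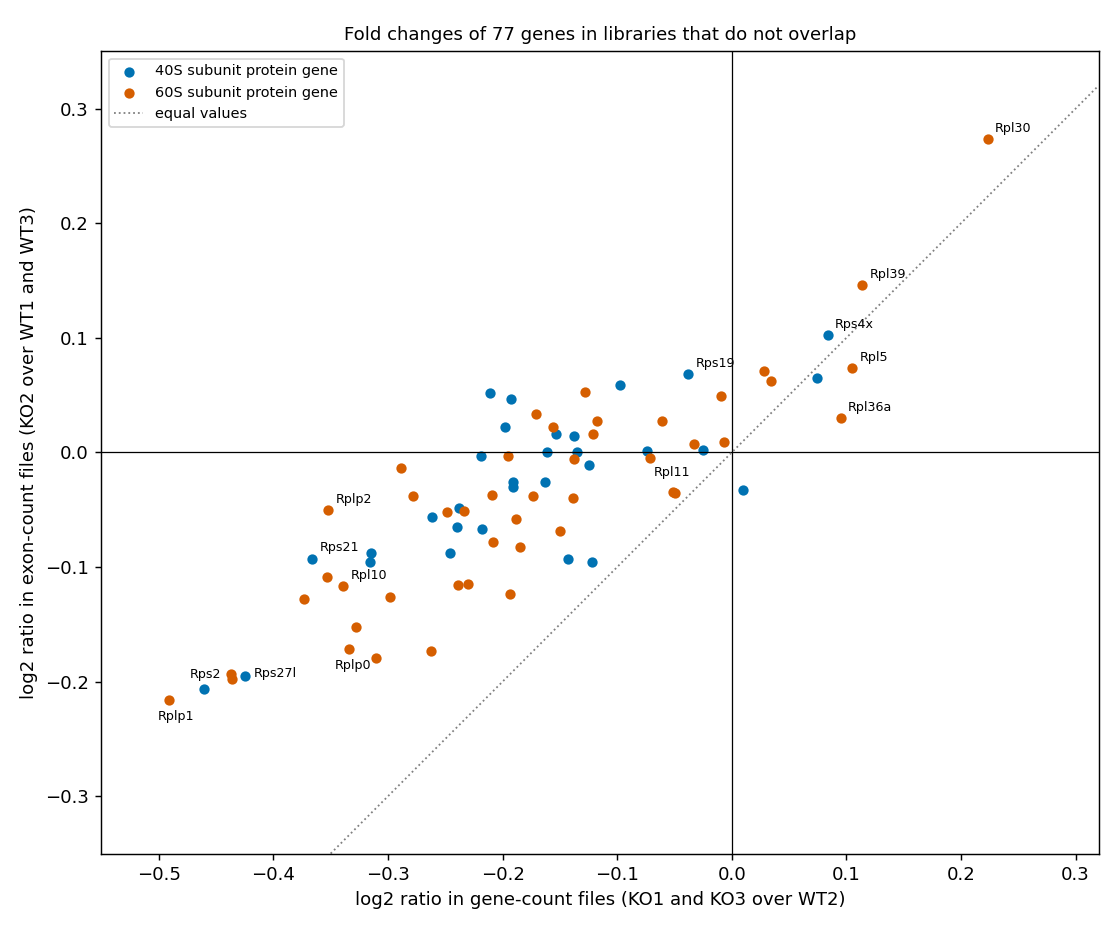
Log2 ratio of Asxl2-/- to wild type for 77 members in the gene-count libraries (x axis) and in the exon-count libraries (y axis), with a dotted line of equal values. Points run from Rplp1 at the lower left to Rpl30 at the upper right (Pearson correlation 0.846), and most lie left of the line, where the gene-count ratio is the lower one (TMM scale).

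Between libraries of one genotype the members varied little among themselves. The log2 ratio of 2 libraries had an SD over the 77 genes of 0.074 between KO1 and KO3 and of 0.064 between WT1 and WT3. Across genotypes it was 0.13 and 0.17 for KO1 and KO3 against WT2, and 0.083 and 0.10 for KO2 against WT1 and WT3. Over all genes that reached 100 counts the same SD was 0.27 in both pairs within a genotype and 0.35 to 0.55 across genotypes. The SD was thus smaller for the members than for genes at large in every pair. The genes at large were not matched to the members for level, and counting error is larger at low counts. The part of level in this contrast was not tested. The members were unequal among themselves by a little more across genotypes than within one, on so few pairs that no test was made. At either end of the order the same genes recurred under the 24 ways of processing the same libraries, the main one included. Rps2, Rpl41 and Rps27l were among the lowest 10 in all 24 and Rpl30, Rpl39, Rps4x, Rpl5 and Rps24 (the last named after its values were seen) among the highest 10 in all 24. Several of these settings only rescale whole libraries. That moves all members by nearly the same amount and leaves their order almost unchanged, so the recurrence is a description only.

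Use of single exons within the members could be read only from KO2, WT1 and WT3. For 415 exons with at least 500 counts in each of these libraries, the share of an exon in its gene differed between KO2 and the mean of the controls by a median of 0.029 on the log2 scale, and by 0.025 between the controls. The difference exceeded 0.2 for 7 exons in the first comparison and 3 in the second. A short alternative exon of Rps24 of 20 bases (chr14:24495430-24495449), chosen after its values were seen, took 2.61% of the counts of Rps24 in KO2, 2.17% in WT1 and 0.921% in WT3. The wild-type libraries differed from each other there by more than KO2 did from WT1, and with 1 Asxl2-/- library there was no test.

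Ribosomal proteins whose names fall outside the rule lay in much the same range as the members. Of the 6 tested, 0 passed in edgeR and 1 with DESeq2, and the median log2 fold change was -0.17, or -0.074 with library size alone and -0.014 with the abundance trend removed. All 6 are given, 3 of them beyond the naming rule and with their values seen. Rps3a1, a 40S protein, was at 0.070 (edgeR adjusted p = 0.627), and Fau, which encodes a ribosomal protein fused to a ubiquitin-like protein, at -0.21 (adjusted p = 0.247). Gnb2l1, the gene of the 40S-bound scaffold Rack1, was at -0.14 (adjusted p = 0.352). The paralogues Rpl22l1 and Rpl7l1 were at -0.063 (adjusted p = 0.727) and -0.23 (adjusted p = 0.207), and Rpl36al, an autosomal copy of the X-linked Rpl36a, was at -0.38 (edgeR adjusted p = 0.108).

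Genes that work with the ribosomal proteins were set beside them. Of 14 translation factors and other genes with pyrimidine tracts, 0 passed the test in edgeR and 3 with DESeq2, and the median log2 fold change was -0.12 (0.040 with the abundance trend removed). Those of smallest p were Eef1d (-0.45, edgeR adjusted p = 0.085), Eef2 (-0.27, 0.120) and Eef1g (-0.26, 0.143). Of 12 genes that act on translation through mTOR or Myc, 0 passed in edgeR and 2 with DESeq2, and the median was -0.067 (0.031 with library size alone), with Mycn at 1.46 (edgeR adjusted p = 0.065), Larp1, a protein that binds pyrimidine tracts, at -0.53 (0.082) and the kinase Mtor at -0.24 (0.159). Of 40 genes of ribosome biogenesis tested, which make and process ribosomal RNA and assemble the subunits, 0 passed and all 40 lay below 0. They also did so under each of the other 23 ways of processing, which reuse the same libraries. An unadjusted p under 0.05 was found for 29 of them, where 12.6% of all genes had one as lower. These 40 genes were listed with earlier results of these data known, so their counts are a description only. Their median log2 fold change was -0.33 in a range from -0.62 to -0.15, against -0.099 for the ribosomal proteins, and the smallest p belonged to Nop2 (-0.61, edgeR adjusted p = 0.054), Bop1 (-0.54, 0.059) and Nolc1 (-0.62, 0.068). DESeq2 called 24 of the 40, where it called 8 of the 79 ribosomal protein genes and 8.12% of all genes as lower. The median of the biogenesis genes lay between -0.44 and -0.23 under the 24 settings. No test compared these lists with the members.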

How the data were processed

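RNA from sorted LSK cells was sequenced as poly(A)-selected, unstranded libraries in 3 Asxl2-/- and 3 wild-type samples, grouped by the genotype in their labels. The authors deposited raw read counts, as whole numbers on mm10 with RefSeq transcripts, per transcript for 3 libraries and per exon for the other 3. The submitters' processing notes name STAR, featureCounts and DESeq2, without versions or roles. The study tested expression with Cuffdiff, which needs aligned reads.

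For each symbol the transcript with the longest summed exons was kept and exon counts were summed. Genes that passed filterByExpr entered a quasi-likelihood fit and F test in edgeR 4.0.16 (R 4.3.3), with TMM scaling, file kind and group as terms and Benjamini-Hochberg adjustment over all genes, at a threshold of 0.05. DESeq2 1.42.0 was an alternative. The steps were tested on simulated data. Totals over the transcripts kept were 25528540 to 55032075 counts per library.

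The members and gene lists were chosen with earlier results of these data known. Named members were those past the threshold, the 5 of smallest p in each direction, the 3 highest and 3 lowest per kilobase, the stalk proteins and Rpsa, the tissue-restricted paralogues, X-linked members, Rps19, Rps14, Rpl5 and Rpl11, untested members and those with extreme ratios between the kinds of file. From other lists at most 3 genes of smallest p were named, and 1 gene outside the members is not reported here. Alternatives were another tool, scaling, filters, covariates, trends with length and abundance, the longest exon, the transcript with most counts, single kinds of file and leaving out each library. Scaling to the ribosomal protein genes was added after the data were seen. The reference genome at hand was of another build and was not used.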

Additional observations from a re-analysis of the deposited data

Results flagged for a closer look

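Rpl39l, the paralogue of Rpl39 known from the testis, was left out of the test because it had counts in a single library. KO2 held 39 counts (0.709 CPM of its total), of which 7, 11 and 21 fell on its exons from first to last, while the other 5 libraries held 0, which allows up to 0.118 CPM in the shallowest of them (3 counts, counting error only). It stood out as a signal above the control libraries in data outside the comparisons. The other Asxl2-/- libraries did not share it, and its source was not tested.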

How the results depend on the processing

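Genes called among all those tested numbered 331 in the main comparison, 2329 with DESeq2, 161 with library size alone, 219 with the libraries scaled to the ribosomal protein genes, and 9 to 1312 when each library in turn was left out (lowest without WT3, 16 without KO1, highest without WT1). The corresponding number of ribosomal protein genes was 0, but 8 with DESeq2 and 0 to 3 with a library left out (3 without WT1, namely Rps27l, Rplp1 and Rps2). The replicate numbers were not taken as pairs, since the deviations of same-numbered libraries from their group means had correlations of 0.29, -0.0077 and -0.0028. With the file kind removed these were 0.64, 1 and 0.39, each the highest for its library, at most a weak hint that the numbers go together. The value of 1 for KO2 and WT2 follows from the fit, in which each is the lone library of its group in its kind of file. The fit also makes the summed deviations of KO1 and KO3 equal to those of WT1 and WT3, so the values of 0.64 and 0.39 are tied to each other. With a replicate block and the file kind 5179 genes and 10 ribosomal protein genes passed, and 4778 and 9 when the length trend was removed as well, fits that leave 1 residual degree of freedom. Under the same block and file kind 5 of the 10 p53 targets and 36 of the 40 biogenesis genes passed. Without WT1, 9.33% of all genes passed, and 36.6% under the block with file kind.

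The median log2 fold change of the ribosomal protein genes was -0.15 with DESeq2 and -0.15 with median-ratio scaling, 0.00028 with library size alone, 0.00055 when scaled to the ribosomal protein genes, 0.0013 with the length trend removed (0.0013 with the replicate block as well), 0.059 with the abundance trend removed, -0.27 without the file kind and -0.29 with the replicate block but without the file kind. It was -0.19 in gene-count files alone, -0.032 in exon-count files alone, and -0.17 to -0.034 with a library left out. The ends of that range are without KO2 and without WT2. Each leaves a kind of file with a single genotype, so both largely repeat the comparison within the other kind. Pooled over both kinds of file, the difference in share of counts was -1.55 to -0.41 percentage points with a library left out. These pooled values also carry the unequal mix of file kinds in the groups. Within a kind the difference was -0.147 points in gene-count files and -0.0077 points in exon-count files.

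For the 25 named members tested, 503 alternative log2 fold changes kept their direction and side of the threshold, 26 kept their direction and passed it, and 41 had the opposite sign, none of these past the threshold. With library size alone they were 0.067 (Rpl11), 0.060 (Rpl32), 0.026 (Rps14) and 0.038 (Rps15a), and scaled to the ribosomal protein genes 0.068, 0.061, 0.027 and 0.038. With the length trend removed they were 0.070 (Rpl11), 0.070 (Rpl32) and 0.027 (Rps14), and with the replicate block as well 0.069, 0.070 and 0.027. With the abundance trend removed they were 0.12 (Rpl11), 0.13 (Rpl32), 0.046 (Rpl4), 0.086 (Rps14), 0.091 (Rps15a) and 0.071 (Rpsa). Without the file kind they were -0.14 (Rpl36a), -0.049 (Rpl5), -0.17 (Rps19) and -0.0073 (Rps4x), and with a replicate block in its place -0.14, -0.048, -0.18 and -0.0078, with Rpl39 at -0.00083. Rps19 was at -0.025 with DESeq2, -0.026 with median-ratio scaling and -0.038 in gene-count files alone. In exon-count files alone Rpl32 was at 0.027, Rps14 at 0.052 and Rps15a at 0.016. With a library left out, Rpl32 lay between -0.099 and 0.026, Rps14 between -0.19 and 0.051, Rps15a between -0.13 and 0.015, Rpl36a between -0.0028 and 0.12, and Rps19 between -0.019 and 0.067. The cause of these changes was not tested beyond the settings themselves. Depth limits Rpl3l, Rpl10l and Rpl39l, while the other members had at least 95 counts in every library.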

Other observations

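Processed copies named as pseudogenes carried few counts beside the ribosomal protein genes. Of the 7 symbols with -ps, Rpl14-ps1 had 506 to 853 counts, Rplp2-ps1 185 to 296, and Rpl31-ps12 0 to 6. The exception was Rpl34-ps1, which lies at the locus of Rpl34 on chromosome 3 and shares 65.8% of the exon bases of Rpl34, with 10225 counts in KO1 against 10272 for Rpl34. Rpl26 and Gm15772 had 15368 counts each in KO1, and Rps27 and Rps27rt 12151 and 12107, so that reads over shared exons were counted under both symbols. In all, 11 of the 81 members shared exon bases with another symbol, 8 of them over 10%.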
